A study of Halocynthia roretzi with 24 samples.

Results

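At 110 cells, whole embryos of the ascidian *Halocynthia roretzi* were compared with animal hemispheres, to ask which transcripts an animal hemisphere lacks and which it holds at a higher level beside the whole embryo. The comparison used 8 of the 24 RNA sequencing libraries, 4 of whole embryos and 4 of animal hemispheres, which carry the numbers No2 to No5 and were paired by number. Its members are the gene models with at least 1 RPKM in 4 or more of these 8 libraries, 11734 of the 16078 models measured. RPKM is reads per kilobase of exon per M (mega) reads in genes, so each value is a share of its library. All embryos were wild type, of a southwestern Japanese population kept for generations in culture. The series holds animal, vegetal and whole samples of 8 and 110 cells, 4 libraries each. The labels say neither how the hemispheres were separated, nor whether they developed apart, nor what a number marks, so p-values reflect only the spread among these libraries, which may be technical.

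Ascidian embryos divide in a fixed pattern, and the third cleavage parts the animal cells from the vegetal cells. In the textbook fate map the animal cells give rise mainly to epidermis and part of the nervous system, and the vegetal cells to endoderm, notochord, most muscle, mesenchyme and the rest of the nervous system. At 8 cells the embryo runs largely on RNA of the egg, and by 110 cells many genes of the embryo itself are active and most cells are restricted to 1 fate. A whole embryo holds the cells of both hemispheres, so an animal hemisphere beside it lacks the vegetal cells.

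The files pair the gene models with no gene symbols, apart from a note naming ND5 in 1 model. The annotation gives 8421 of the 11734 members a best match whose identifier starts with KH, which the files do not explain, 420 a protein record, 1639 a note of no match and 1254 no note. Of 9 gene lists for epidermis, nervous system, muscle, notochord, endoderm, mesenchyme, posterior vegetal RNAs, mitochondria and accessory cells, ND5 was the only gene that could be matched, so the labelled regions could not be checked against markers. Genes are given by identifier and scaffold position. No sequence was used here.

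Inferred from the step between low RPKM values, the 8 libraries held 5.72 to 9.22 M reads in genes, 6.75 ± 1.67 M in whole embryos and 6.55 ± 0.861 M in animal hemispheres (SD, n = 4 each), within the 3.67 to 9.22 M of all 24 libraries. For a gene with an exon length of 1.5 kb, a floor of 3 reads stands at 0.217 to 0.350 RPKM, which allows for counting error only. No marker of RNA quality could be read from the files.

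Beside whole embryos, animal hemispheres were lower in somewhat more genes, and by larger amounts, than they were higher. Of the 11734 genes, 346 were higher in whole embryos and 293 were higher in animal hemispheres, 2.95% and 2.5% of those tested and 5.45% together (limma on log2(RPKM + 1) with the number as a block, Benjamini-Hochberg adjusted p under 0.05). The whole-higher genes differed by a median of 1.84 on the log2 scale, with a range of 0.36 to 5.23, and the animal-higher genes by a median of -1.05, with a range of -2.84 to -0.36. The median over all genes tested was -0.01. At least a 4-fold difference on that scale was found in 145 whole-higher and 19 animal-higher genes, and at least a 2-fold difference in 266 and 155. The directions are not alike by design, since a whole embryo also holds the animal cells. A gene of animal cells alone is diluted in the whole embryo, while a gene absent from animal cells has no such limit. How far this sets the counts and sizes was not tested. In bulk RNA, fewer cells of a type and less RNA per cell cannot be told apart.

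The number block mattered more for the animal-higher genes. Without it 290 genes passed, 229 whole-higher and 61 animal-higher, so that 79% of the calls were whole-higher against 54.1% with the block. With a filter of 5 RPKM the order of the counts turned, to 176 whole-higher and 220 animal-higher genes. Without the libraries of No4 it turned narrowly, to 199 whole-higher and 205 animal-higher genes. Without the libraries of No2, No4 or No5, 251, 404 and 216 genes passed. No gene passed in the opposite direction under any alternative run.

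**Figure D1:**
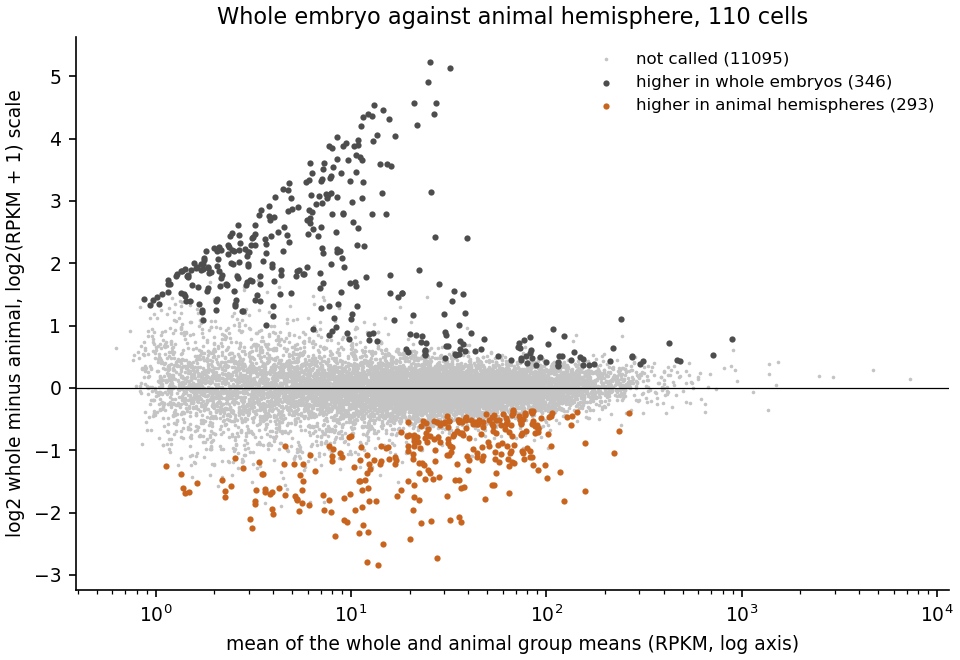
Each point is 1 of the 11734 genes at 110 cells, with the mean of the whole and animal group means on the x axis (RPKM, log axis) and the log2 difference of whole minus animal on the y axis. The 346 whole-higher genes reach 5.23, the 293 animal-higher genes reach -2.84, and the other genes lie around 0.

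Among the whole-higher genes, 109 were under 1 RPKM in every animal library and at or above it in every whole-embryo library. A level of 1 RPKM or more in all 4 whole-embryo libraries and in none of the animal libraries was found for 132 genes, of which these 109 were called. The reverse pattern, all animal libraries and no whole-embryo library, was found for 10 genes, 7 of them called animal-higher. At 0 in all 4 animal libraries with a whole-embryo mean of at least 5 RPKM were 7 genes, and no gene showed the reverse. The design bears on these counts too, as a whole embryo also holds the animal cells. Most members, 10153, were at 1 RPKM or more in all 8 libraries. They held 128 whole-higher and 246 animal-higher genes, a balance to which the split itself contributes, since it leaves out genes that are low in 1 group. The remaining 1439 members held 109 whole-higher and 40 animal-higher genes.

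The filter left out 4344 models, of which 902 were at 0 in all 8 libraries. The 424 genes just inside it, at 1 RPKM or more in exactly 4 libraries, had a median mean level of 1.37 RPKM, and the 385 just outside, in exactly 3 libraries, one of 0.950 RPKM. A gene that passed only through the group where it is high had to differ, so these counts describe the libraries and were not tested.

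Separation between single libraries was also uneven. All 4 whole-embryo libraries lay above all 4 animal libraries in 284 of the 346 whole-higher genes, and in 4.18% of all genes tested. All 4 animal libraries lay above all 4 whole-embryo libraries in 145 of the 293 animal-higher genes, and in 2.94% of all genes tested. In the other called genes the groups overlapped, and the call rests on the differences within numbers. The 346 and the 293 genes each differed in 1 direction within all 4 numbers.

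By number, the median log2 difference of the whole-higher genes was 2.13, 1.46, 1.89 and 1.82 in No2, No3, No4 and No5. That of the animal-higher genes was -1.01, -1.07, -0.77 and -1.02. Both lists were called from these libraries, so the medians describe the spread between numbers and test nothing.

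The gene with the largest difference was S31.g00819, a model of 2 exons and 309 exon bases on scaffold S31 (positions 110877 to 111266, plus strand) with no match. Its level in whole embryos was 51.8, 63.1, 45.0 and 42.4 RPKM in No2 to No5. In animal hemispheres it was 0, 0.890, 0 and 0.808 RPKM, all under the floor of 3 reads, which stands at 1.48 RPKM for its length. The groups lay far apart in every number (log2 difference 5.23 ± 0.23 SE, limma adjusted p = 0.000501), and vegetal hemispheres were higher still at 140, 152, 144 and 87.1 RPKM. So the gene was near the detection limit in animal hemispheres and well measured in the other samples of 110 cells.

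The next gene, S1797.g04191, a model of 2 exons and 2894 exon bases that starts at the first base of scaffold S1797 (1 to 2946, plus strand), has the best match KH.L157.10. Whole embryos held 112, 33.3, 41.9 and 66.4 RPKM, and animal hemispheres 0.363, 0.518, 0.619 and 1.27 RPKM. The ratio of means was 91.7, with no overlap between the groups (log2 difference 5.12 ± 0.31 SE, limma adjusted p = 0.000513). The vegetal libraries held 128, 42.7, 42.5 and 92.5 RPKM, and in the whole and the vegetal libraries alike No2 and No5 were the highest.

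In the other direction the largest difference belonged to S429.g06139, a single-exon model of 237 bases (scaffold S429, 47290 to 47526, plus strand) with no match. Animal hemispheres held 46.3, 3.96, 4.06 and 47.3 RPKM, and whole embryos 6.12, 0, 0 and 2.05 RPKM, against a floor of 1.88 RPKM. The animal values of No2 and No5 were high and those of No3 and No4 low, so the groups overlapped, but the animal library was higher in each number (log2 difference -2.84 ± 0.31 SE, limma adjusted p = 0.00370). The vegetal libraries held 1.95, 0, 0 and 1.73 RPKM. The call was lost without the number block (limma adjusted p = 0.212).

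The second, S53.g07217, has 7 exons and 1304 exon bases (scaffold S53, 1743 to 3557, plus strand) and carries no note. Animal hemispheres held 34.5, 8.17, 9.23 and 36.8 RPKM, and whole embryos 3.95, 0.678, 1.497 and 1.65 RPKM. The ratio of means was 11.4, the groups did not overlap (log2 difference -2.79 ± 0.30 SE, limma adjusted p = 0.00344), and again No2 and No5 were the highest animal libraries. Vegetal hemispheres held 0, 0.427, 0 and 3.30 RPKM. Both animal-higher genes overlap a model on the opposite strand that was also called animal-higher, and since the libraries did not keep strand, reads of the overlapping parts cannot be told apart.

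**Figure D2:**
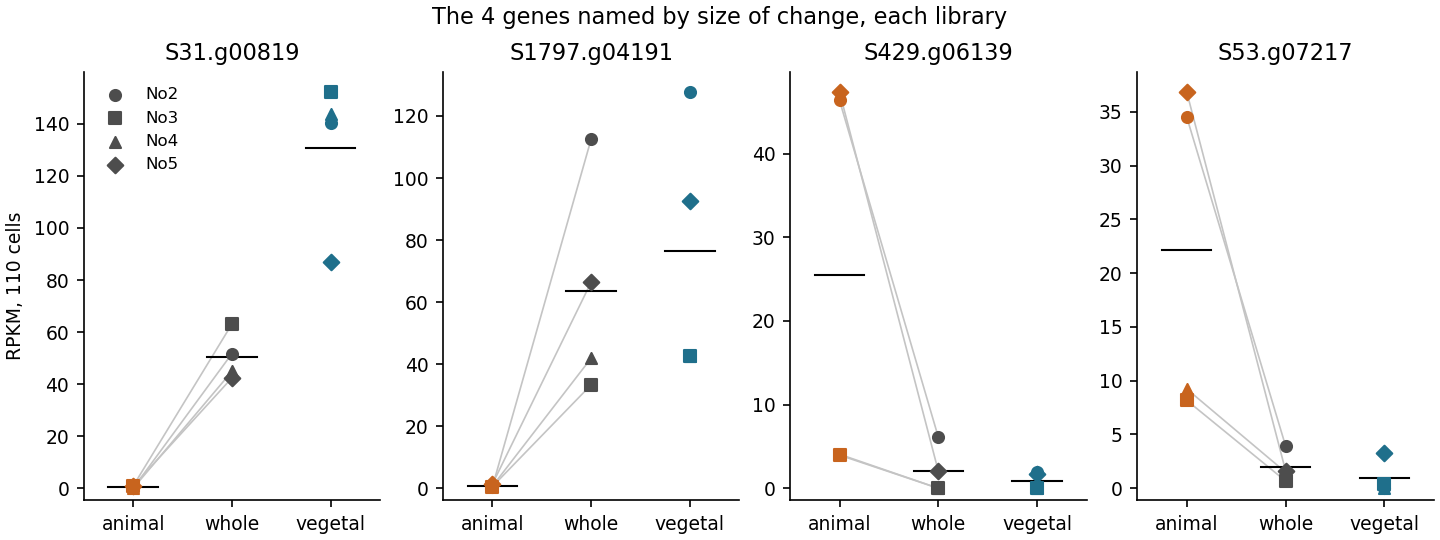
RPKM of the 4 named genes at 110 cells in each library of animal hemispheres, whole embryos and vegetal hemispheres, with a symbol for each number, grey lines joining the animal and whole libraries of a number, and a bar at the mean of 4 libraries. Whole embryos hold 42.4 to 63.1 RPKM of S31.g00819 where animal hemispheres hold 0 to 0.890, and No2 and No5 stand above No3 and No4 in the animal libraries of S429.g06139 and S53.g07217.

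The called genes were a small share of the reads. The 346 whole-higher genes held 2.30%, 1.84%, 2.02% and 2.21% of the reads in genes of whole embryos No2 to No5 (2.09% ± 0.202 SD), and 1.09%, 1.14%, 1.04% and 1.21% of those of animal hemispheres (1.12% ± 0.0760 SD). The 293 animal-higher genes held 3.03%, 2.19%, 2.23% and 2.85% in animal hemispheres (2.58% ± 0.427 SD), against 1.74%, 1.28%, 1.44% and 1.45% in whole embryos (1.48% ± 0.191 SD). In both lists the shares did not overlap between the groups, as the choice of the genes set them to differ.

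Vegetal hemispheres took no part in the choice of the genes, although the contrast of vegetal with animal hemispheres shares the animal libraries. The median level of the whole-higher genes was 1.004 RPKM in animal hemispheres, 12.7 in whole embryos and 22.8 in vegetal hemispheres. That of the animal-higher genes was 39.8, 19.3 and 12.4 RPKM, while the medians over all genes tested were 22.3, 21.6 and 21.3 RPKM. By these medians whole embryos lay between the hemispheres in both lists, but not in each gene. The whole-embryo mean was above both hemispheres in 92 of the 346 whole-higher genes (26.6%) and below both in 112 of the 293 animal-higher genes (38.2%). Over all genes tested, 31.4% lay above both and 26.1% below both. These shares are not like for like. In the called genes the side of the animal mean was set by the choice, so only the vegetal mean decides. These positions use the libraries that chose the genes and are a description. Side by side, the median log2 difference between group means of the whole-higher genes was 1.85 for whole minus animal and 2.58 for vegetal minus animal. For the animal-higher genes these medians were -1.01 and -1.48, and for all genes tested -0.02 and -0.06. The vegetal libraries gave 2.83% ± 0.242 of their reads to the whole-higher genes and 1.26% ± 0.130 to the animal-higher genes (SD, n = 4).

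**Figure D3:**
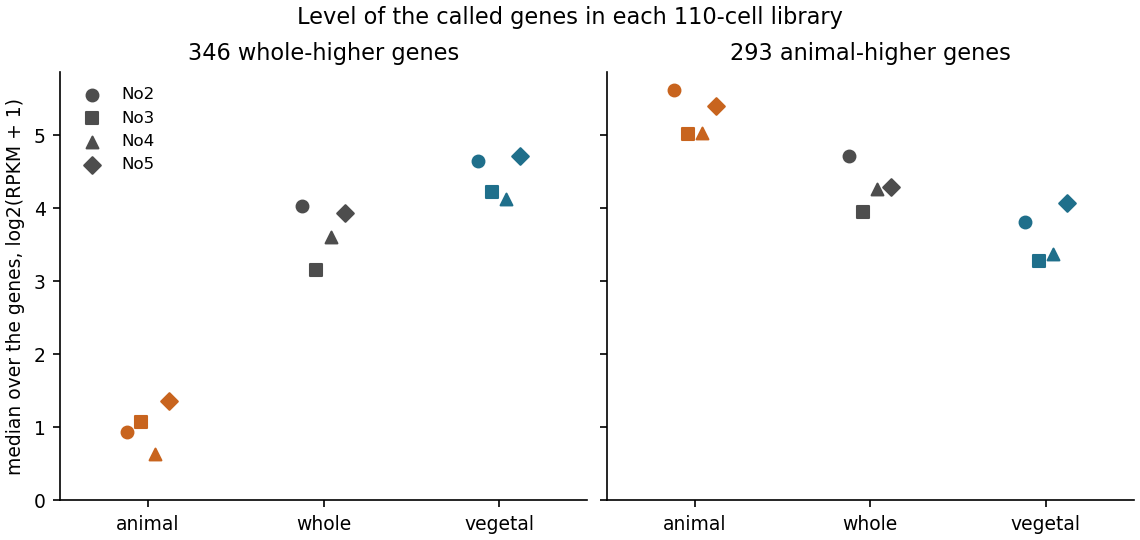
Median level over the 346 whole-higher and the 293 animal-higher genes in each 110-cell library, on the log2(RPKM + 1) scale, with a symbol for each number. Whole-embryo libraries stand between the animal and vegetal libraries of their number in both lists, and no animal library overlaps a whole-embryo library, as the choice of the genes set.

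The place of whole embryos between the hemispheres was read from genes chosen without the number they were read in. These were genes at least 4-fold apart between the hemispheres by the means of the other 3 numbers and at 5 RPKM or more in the higher one. Differences from the vegetal RPKM were taken for whole embryos and for animal hemispheres, and the slope of the first on the second, which is 0 at the vegetal and 1 at the animal level, was 0.531, 0.498, 0.644 and 0.429 in No2 to No5 (0.526 ± 0.0899 SD). With both directions pooled, whole embryos lay near midway by this slope, with No4 closest to the animal level. The slope gives most weight to genes with large RPKM differences. The median gene stood at 0.457, 0.502, 0.524 and 0.457.

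The value differed by the direction of the genes, a split made after the values were seen. Over the 187 to 212 genes higher in animal hemispheres the slope was 0.348, 0.298, 0.542 and 0.187 (0.344 ± 0.148 SD). Over the 289 to 338 genes higher in vegetal hemispheres it was 0.682, 0.725, 0.712 and 0.658 (0.694 ± 0.0302 SD). Whole embryos stood nearer the hemisphere where the genes were low in every number for the vegetal genes and, for the animal genes, in No2, No3 and No5 but not in No4. Read as a level, whole embryos held a median of 42.1%, 26.1%, 55.7% and 33.2% of the animal level in genes higher in animal hemispheres. In genes higher in vegetal hemispheres they held 51.8%, 37.4%, 50.04% and 41.2% of the vegetal level. The animal share from the first genes and the vegetal share from the second summed to 0.666, 0.573, 0.831 and 0.530 by the slopes, below 1 in each number, and to 0.828, 0.505, 0.951 and 0.540 by the median gene. What sets these sums was not tested.

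**Figure D4:**
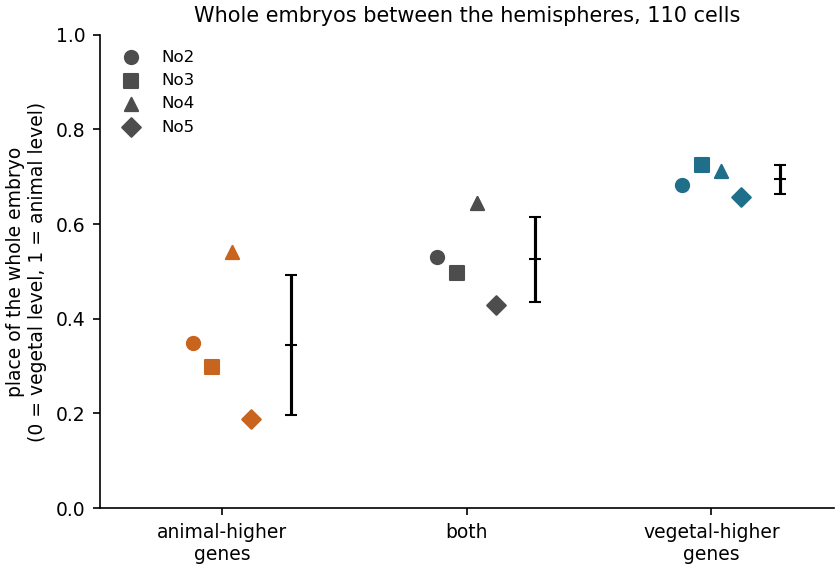
Place of the whole embryo between the vegetal level (0) and the animal level (1) at 110 cells, as the slope in each number, for genes higher in animal hemispheres, for both directions together and for genes higher in vegetal hemispheres, with the mean and SD of 4 numbers beside the points. The means are 0.344, 0.526 and 0.694.

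The level at 8 cells separated the called genes, and comes from libraries that the contrast did not use. Off at 8 cells, with every 8-cell group mean under 1 RPKM, were 817 genes, and of these 207 were whole-higher and 106 animal-higher at 110 cells, 25.3% and 13%. High at 8 cells, with every group mean at 5 RPKM or more, were 8916 genes, of which 90 and 134 were called, 1.01% and 1.5%. Between these classes lay 2001 genes, with 49 and 53 called, 2.45% and 2.65%. Genes that were off at 8 cells thus made up 59.8% of the whole-higher and 36.2% of the animal-higher genes, but 6.96% of the genes tested. Part of these shares is set by the filter, since a gene at a low level in 1 group is a member only through the other. Of the 817 genes, 126 were under 1 RPKM in all 4 animal libraries, and 106 of them were called whole-higher. Another 8 were under 1 RPKM in all 4 whole-embryo libraries, and 6 of them were called animal-higher. Among the remaining 683, at 1 RPKM or more in a library of each group, 101 were whole-higher and 100 animal-higher, 14.8% and 14.6%, a split made after the values were seen. Without the number block, 205 of the genes off at 8 cells were called in place of 313, 54 in place of 102 of those between, and 31 in place of 224 of the high genes.

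Sizes followed the same order. The median log2 difference of the called genes that were off at 8 cells was 2.25 for whole-higher and -1.59 for animal-higher genes, and 205 and 100 of them reached 2-fold. For the genes between it was 1.71 and -1.13. For the genes high at 8 cells it was 0.63 and -0.63, and 14 and 21 reached 2-fold. Among the called genes, transcripts abundant at 8 cells thus differed by smaller amounts between whole embryos and animal hemispheres. The threshold of the call and the filter both bear on these sizes, and sizes over genes not called were not compared.

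**Figure D5:**
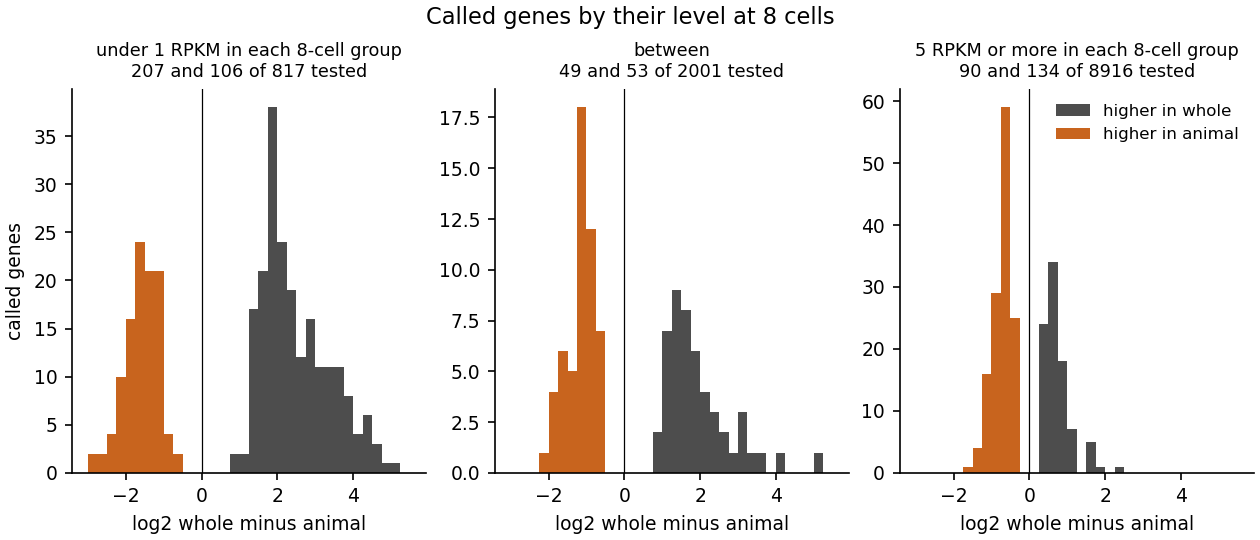
Histograms of the log2 difference of whole minus animal at 110 cells for the called genes, in 3 panels by level at 8 cells, with the number of called genes on the y axis, which differs in scale between the panels. The 207 and 106 called genes that were off at 8 cells spread widest, and the 90 and 134 that were high at 8 cells lie closest to 0.

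Along the 293 animal-higher genes, No2 and No5 stood above No3 and No4 more often than over all genes tested, in both groups. The median level of these 293 genes was 48.0, 31.4, 31.6 and 41.2 RPKM in animal hemispheres No2 to No5, and 25.3, 14.4, 18.3 and 18.7 RPKM in whole embryos. Both No2 and No5 lay above both No3 and No4 in the animal libraries for 162 of these genes, 55.3%, against 16.3% of all genes tested. In the whole-embryo libraries the same order held for 42.3% of them, against 19.5%. Among the 106 that were off at 8 cells the share was 75.5% in animal and 60.4% in whole-embryo libraries, against 36.8% and 41.7% of all 817 genes that were off. Of the whole-higher genes, 43.4% showed the order in whole-embryo libraries, against 19.5% of all genes tested. For those off at 8 cells it was 48.8%, against 41.7% of all that were off. In animal libraries, where the medians of the whole-higher genes were at most 1.56 RPKM, 16.5% showed it, near the 16.3% of all genes tested. The order was noticed in the data, and what the numbers stand for was not tested.

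Annotation and gene structure differed between the lists. A KH best match was carried by 277 whole-higher genes, 80.1%, and 181 animal-higher genes, 61.8%, against 71.8% of the genes tested. A note of no match was carried by 39 and 80, 11.3% and 27.3%, against 14%. A protein record was carried by 13 and 3. Both lists held shorter models than the rest, with median exon lengths of 1231.5 and 1223 bases against 1614, and a median of 5 and 4 exons against 6. Overlap with another model was found in 22.3% of the whole-higher and 41.3% of the animal-higher genes, against 37.2% of the genes tested. An annotated UTR was found in 122 and 102 genes, 35.3% and 34.8%, against 49.9%. These shares are descriptions, and members of a gene family or of overlapping models are not independent.

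Genes that share a best match were frequent among the whole-higher genes, at 143 of 346 or 41.3%, against 28.7% of the animal-higher genes and 26.5% of all tested. Of 1305 best matches shared by several tested models, 26 had at least 2 whole-higher models, 6 at least 2 animal-higher models, and 7 had models in both lists.

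The match with most called models was KH.C8.649, singled out after its values were seen, with 8 of 9 tested models whole-higher and none animal-higher. These 8 models lie on 5 scaffolds and differed by 3.32 to 4.91 on the log2 scale. Their summed level was 396, 66.5, 167 and 263 RPKM in whole embryos No2 to No5, and 0.303, 5.62, 0 and 6.34 RPKM in animal hemispheres. In vegetal hemispheres it was 569, 179, 222 and 505 RPKM, and at 8 cells it was at most 1.92 RPKM in any library of whole embryos. The 8 models were thus nearly absent from animal hemispheres at 110 cells and from whole embryos at 8 cells. The remaining model of the match held 59.9 RPKM in whole embryos and 66.6 in animal hemispheres (log2 difference -0.09, limma adjusted p = 0.784). Among the 9 models, 5 have 1137 exon bases each, and reads of near-identical copies may have been split or shared between them.

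Called genes also lay beside each other. Of the whole-higher genes with a tested next model on the scaffold that neither overlaps nor shares the best match, 41 of 241 or 17% had a whole-higher neighbour, against 327 of 9323 or 3.51% of all genes. For the animal-higher genes it was 38 of 231 or 16.5%, against 314 of 9323 or 3.37%. The nature of these neighbours, including models that split 1 gene, was not tested.

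ND5, a subunit of complex I of the respiratory chain encoded in the mitochondrial genome, is the model S964.g01698 (scaffold S964, 6139 to 6998, plus strand). In many ascidians the mitochondria of the egg are gathered in a cytoplasm that passes to the muscle lineage on the vegetal side. ND5 stood at 1750, 677, 1203 and 2870 RPKM in whole embryos and at 894, 1571, 726 and 1406 RPKM in animal hemispheres. The groups overlapped, No3 went the other way, and the difference did not pass (log2 0.38 ± 0.36 SE, limma adjusted p = 0.590). The result rests on No3, without which the difference was 0.91 and passed (limma adjusted p = 0.00804).

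Scaffold S964 carries 11 models, 10 of them tested, and was known from earlier results of these data. Their mean level on the log2(RPKM + 1) scale was 8.05, 6.997, 7.13 and 7.33 in whole embryos and 7.04, 6.50, 6.78 and 6.10 in animal hemispheres. Vegetal hemispheres held 8.86, 7.94, 7.95 and 7.91. Whole embryos were higher in 4 of 4 numbers, by 0.77 ± 0.42 (SD), with a two-sided exact sign-flip permutation p of 0.125, the smallest that 4 pairs allow, and an exact unpaired permutation p of 0.0571. All 10 whole-embryo means were higher, with ratios of 1.41 to 2.02, and 5 models were called. None of these 5 calls held without the number block (limma adjusted p = 0.275 to 0.663), and 4 of them were lost without No2 and 4 without No5. At 8 cells the mean difference was 1.04 ± 0.34, again in 4 of 4 numbers (exact sign-flip permutation p = 0.125, exact unpaired p = 0.0286), 2 of the models were called, and in none did the difference change between the stages by the test of the change. These models lie side by side and are not independent.

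At 8 cells the same comparison, made with its own 8 libraries, gave far fewer calls. Of 10892 genes tested, 7 were called or 0.0643%, all higher in whole embryos, by 0.98 to 1.77 on the log2 scale, against 903 at an unadjusted p under 0.05, of which 493 were higher in whole embryos. Of the 7 genes, 5 or 71.4% were also whole-higher at 110 cells, against 2.95% of all genes tested there. These 5 are 1.45% of the 346, and 2 of them are models of scaffold S964, which are not independent. Of the whole-higher genes of 110 cells, 135 were tested at 8 cells, where their median log2 difference was 0.02. For the animal-higher genes 180 were tested, with a median of -0.04. The number of calls was 0 to 9 with 1 number left out and 0 without the trend in the prior variance.

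The largest differences at 8 cells belonged to a pair of overlapping models on opposite strands of scaffold S480, whose reads cannot be told apart in the overlap. S480.g14149 (10488 to 16473, minus strand, best match KH.C1.755) held 448, 440, 420 and 458 RPKM in whole embryos and 95.0, 132, 147 and 148 RPKM in animal hemispheres. S480.g12062 (9248 to 10663, plus strand, no match) held 211, 196, 208 and 192 RPKM and 41.6, 57.3, 72.7 and 72.6 RPKM. Neither overlapped between the groups, with ratios of means of 3.38 and 3.30 (log2 1.77 ± 0.12 and 1.74 ± 0.15 SE, limma adjusted p = 0.0104 and 0.0186), and the calls were lost in 4 and 5 of 12 alternatives. Without No3, No4 or No5 the limma adjusted p was 0.142, 0.0586 and 0.0795 for S480.g14149 and 0.197, 0.142 and 0.0967 for S480.g12062. At 110 cells whole embryos held a mean of 48.5 and 19.3 RPKM and animal hemispheres 39.98 and 10.9 RPKM, and neither difference passed (log2 0.25 and 0.62, limma adjusted p = 0.363 and 0.355). Vegetal hemispheres of 110 cells held a mean of 287 and 130 RPKM, so both models still stood far above the animal level there.

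The change itself was tested as the difference of whole minus animal at 110 cells minus that at 8 cells, over 16 libraries with the number within each stage as a block. Of 12158 genes, 368 or 3.03% changed, with 231 or 1.9% shifting towards whole embryos and 137 or 1.13% towards animal hemispheres, and 1948 at an unadjusted p under 0.05. The median change was 2.30 and -1.32 on the log2 scale. Without No2, No3, No4 or No5 the count was 161, 228, 159 and 97, without the block 213, with a filter of 5 RPKM 184 and with a pseudocount of 0.1 159. This test shares the 110-cell libraries with the main comparison, so its calls are no second support for it.

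The largest shifts towards whole embryos were again S31.g00819 (5.53 ± 0.48 SE, limma adjusted p = 0.000435) and S1797.g04191 (5.20 ± 0.41, limma adjusted p = 0.000292). S1797.g04191 was at most 0.122 RPKM in any whole-embryo library of 8 cells. On scaffold S480, S480.g14149 went the other way, by -1.52 ± 0.20 (limma adjusted p = 0.00296), while its partner S480.g12062 did not pass (-1.12 ± 0.43, limma adjusted p = 0.231). S429.g06139, named at 110 cells, shifted towards animal hemispheres by -2.69 ± 0.41 (limma adjusted p = 0.00592).

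The largest shift towards animal hemispheres was S89.g00417, a model of 3 exons and 324 exon bases (scaffold S89, 149693 to 151315, minus strand) with no match (-3.24 ± 0.50 SE, limma adjusted p = 0.00622). At 110 cells it held 83.0, 23.4, 17.8 and 64.1 RPKM in animal hemispheres and 17.8, 2.22, 0.816 and 10.8 RPKM in whole embryos. At 8 cells it was at 0 in all 4 animal libraries, and at 0, 3.12, 0 and 0 RPKM in whole embryos. It was thus above 0 in all 8 libraries of 110 cells, if under its floor of 1.37 RPKM in whole embryos No4, and highest in animal No2 and No5. It overlaps a model on the opposite strand that was also animal-higher. S53.g07217 followed (-3.09 ± 0.52, limma adjusted p = 0.0103). For S89.g00417 and S53.g07217 the call of the change was lost in 3 of 12 alternatives each. Without No5 the limma adjusted p was 0.0549 and 0.0548, and without No2 it was 0.074 for S53.g07217. The order of these genes rests on No3, the only number with S89.g00417 above 0 at 8 cells. Without No3 the change was -2.66 in S89.g00417 and -2.76 in S53.g07217.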

How the data were processed

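The authors deposited RPKM values per gene model and an annotation with scaffold coordinates. Trizol-extracted total RNA was made into TruSeq libraries without strand, per the labels' protocols, and HISAT2 is named in the submitters' processing notes. The build was not given in the sources used here, nor were the counter and the treatment of multi-mapped reads. Groups and numbers come from the labels.

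RPKM values were tested as log2(RPKM + 1) with limma 3.58.1 in R 4.3.3, with a trend in the prior variance, two-sided, adjusted over all genes tested. For low genes a fold change on this scale is too small, and ratios given are of mean RPKM. Genes needed 1 RPKM in at least 4 of the libraries fitted. The fits were tested on simulated data. Depth was inferred from low RPKM values times exon length, of which 82.6% to 86.4% lay within 0.1 of a whole read (20% by chance), too few for a count model.

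The number was kept as a block because deviations of same-numbered whole and animal libraries correlated at 0.41 to 0.53 at 110 cells and 0.45 to 0.61 at 8 cells, against -0.29 to 0.10 between numbers. Deviations were taken from the group mean of each gene and cancel out within a group. Positive correlations within numbers thus push those between numbers to negative values by construction. Named genes are those with the largest log2 change in each direction among called genes at 5 RPKM or more in the higher group with 1 sign in all 4 numbers, plus scaffold S964. The members, the lists and the rules were chosen with earlier results of these data known. Alternatives changed the block, pseudocount, filter, scaling, prior variance, libraries fitted and numbers used.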

Additional observations from a re-analysis of the deposited data

Results flagged for a closer look

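Checked were 30 groups of 4 libraries, from the named genes, the scaffold S964 means, the read shares and the animal share. A library far from the others was found in 3 of them, all of named genes. The limit used flags about 1 in 20 groups by chance only where values are normally distributed. That rate does not hold for values near 0, where a group with 1 library above 0 has a gap of 1 in any case. All 3 are No3 of whole embryos at 8 cells, at low levels. For S31.g00819 it held 4.67 RPKM against 0.886 to 1.11 in the others, a gap of 0.940 of the range. For S53.g07217 it held 2.15 RPKM, with a gap of 0.842 of the range, and for S89.g00417 it held 3.12 RPKM against 0, a gap of 1. The cause was not tested.

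The difference between whole embryos and animal hemispheres changed from 8 to 110 cells, by the limma test of the change itself, in 6 named genes. On the log2 scale it changed by 5.53 in S31.g00819, 5.20 in S1797.g04191, -3.24 in S89.g00417, -3.09 in S53.g07217, -2.69 in S429.g06139 and -1.52 in S480.g14149. S31.g00819, S1797.g04191, S89.g00417 and S53.g07217 were named by their change in this same test, so their passing it was set by the choice.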

How the results depend on the processing

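For 110 cells, the 639 calls with the replicate number as a block became 290 with no replicate block, 396 with a filter of 5 RPKM and 216 to 700 with 1 number left out. For 8 cells, the 7 calls became 2 without a filter, 0 without the trend and 0 to 9 with 1 number left out. For the change between stages, the 368 calls became 213 with no replicate block, 184 with a filter of 5 RPKM, 159 with a pseudocount of 0.1 and 97 to 228 with 1 number left out. The cause was not tested. By class at 8 cells, no replicate block gave 205, 54 and 31 called genes in place of 313, 102 and 224. The S964 difference of 1.04 at 8 cells reached an exact unpaired permutation p of 0.0286 where pairs cannot pass. With all 24 libraries and no block, 74.5% of the calls at 110 cells were whole-higher, against 54.1%. With the 5 RPKM filter it was 44.4%, and without No4 49.3%. No named value reversed. Among the other values, of single genes and smaller counts, 262 stayed on their side of the threshold or within 1.5 times their count, 48 were no longer past the threshold, 6 newly passed it and 33 counts moved further. Genes under about 1.5 RPKM in short models rest on under 3 reads.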
